A study of Mus musculus with 10 samples.

Results

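The genes described here are imprinted genes, chosen from a list of 40 known members, 18 expressed from the maternal and 22 from the paternal copy. Of these, 39 were rows of the gene count table, 17 maternally and 22 paternally expressed, out of 17404 genes in all, and each of the 39 passed the filter of at least 11 counts in total. Rian is the listed gene with no row in that table. RNA came from long-term hematopoietic stem cells (LT-HSCs) sorted as CD150+ cells from fetal livers at E14.5 (embryonic day), with 6 KO libraries (Tnfrsf11aCre/+; Spi1f/f) and 4 WT libraries (Tnfrsf11a+/+; Spi1f/f). All 10 libraries therefore carry the floxed Spi1 alleles, and the genotypes differ in the Cre. The Cre sits at the Tnfrsf11a locus, which is active in macrophage precursors, and it was used to remove macrophages through loss of the myeloid factor Spi1 (PU.1). The comparison asks how stem cells differ when they develop with few liver macrophages.

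Genomic imprinting marks the maternal and paternal copies of a gene differently in the germ line, so that RNA is made mostly from a single parental copy. The marks are kept as DNA methylation at control regions, each of which governs a cluster of genes, often through a long noncoding RNA. Many imprinted genes regulate fetal growth, and several, such as H19, Igf2 and the genes of the Dlk1-Dio3 cluster, are studied for roles in stem cell quiescence. The mice were of the C57BL/6 background, so these reads cannot be assigned to a parental copy and only the summed level of a gene was measured. Several members, among them Cd81, Nap1l4 and Tssc4, are known to be imprinted mainly in placenta.

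The member whose difference between KO and WT passed the test was Kcnq1ot1, the noncoding RNA that is made from the paternal copy within Kcnq1 and silences neighbouring genes. Igf2r, Ndn and Impact were the other members whose KO and WT libraries did not overlap in CPM (counts scaled to library size after TMM normalisation). The bases just before the starts of Kcnq1ot1 and Igf2r are shown because their values separated the genotypes at clusters with a silencing noncoding RNA. Each is 250 bases, read 5′ to 3′ on the gene's strand from RefSeq (GRCm38.p6), with CG dinucleotides, the sites of DNA methylation, in capitals. Promoters were matched by symbol for 33 of the 40 listed genes.
Kcnq1ot1, chr7:143296548-143296797, minus strand: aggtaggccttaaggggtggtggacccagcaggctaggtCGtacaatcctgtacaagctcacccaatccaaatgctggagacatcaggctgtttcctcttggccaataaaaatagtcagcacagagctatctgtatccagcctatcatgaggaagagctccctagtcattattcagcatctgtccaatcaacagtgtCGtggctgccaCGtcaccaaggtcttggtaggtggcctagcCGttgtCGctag
Igf2r, chr17:12769707-12769956, minus strand: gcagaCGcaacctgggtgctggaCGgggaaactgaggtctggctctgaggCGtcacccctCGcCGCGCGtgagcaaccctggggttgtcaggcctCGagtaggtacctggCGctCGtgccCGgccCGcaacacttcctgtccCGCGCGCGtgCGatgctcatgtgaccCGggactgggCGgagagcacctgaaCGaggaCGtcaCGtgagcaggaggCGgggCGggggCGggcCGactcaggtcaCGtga
The Igf2r window held 27 CG dinucleotides, against 5 for Kcnq1ot1 and a median of 6 over the same stretch of 32851 RefSeq promoters.

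ZFP57, the zinc finger protein that protects imprints, binds TGCCGC when its CG is methylated. These letters, or GCGGCA on the other strand, occurred in 11 of 50 member promoters of 300 bases and in 11.6% of all promoters of that length. Among promoters of members that start at a maternally methylated control region, 6 of 15 held the letters, and 5 of 35 did among the other members. The 15 belong to 10 genes and the 6 to 5 genes, with 2 overlapping windows of Mest among them. Member promoters had a median of 12.5 CG dinucleotides, against 7 over all promoters of that length, and the part of CG content in these counts was not tested. The downstream start of Mest, a paternally expressed hydrolase gene that was the most abundant member, held 2 matches in the 250 bases before it. It is shown with the matches in capitals because Mest followed the summed endothelial markers over these libraries.
Mest, chr6:30737800-30738049, plus strand: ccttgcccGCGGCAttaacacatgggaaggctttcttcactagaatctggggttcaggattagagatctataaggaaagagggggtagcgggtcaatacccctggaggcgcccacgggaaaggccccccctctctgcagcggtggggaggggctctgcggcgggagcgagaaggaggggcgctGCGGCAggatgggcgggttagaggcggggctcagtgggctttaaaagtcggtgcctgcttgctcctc
The windows of Kcnq1ot1 and Igf2r held 0 matches. A match is a description of letters and no binding or methylation was measured.

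Depth ran from 5315435 to 30941726 counts on genes in KO and from 7633446 to 18256010 in WT. WT replicate 1 stood apart, with a median Spearman correlation of 0.818 to the other libraries, where theirs ranged from 0.880 to 0.934, so values that it moved are also given without it. The summed level of 12 LT-HSC markers was 783 to 2011 CPM in KO and 580 to 853 CPM in WT. The 10 endothelial markers summed to 1348 to 9504 CPM in KO and 313 to 5976 CPM in WT, where WT replicate 1 was the lowest. The 12 hepatoblast markers summed to 95.9 to 9197 CPM in KO and 275 to 6295 CPM in WT. Spi1 was at 60.6 ± 31.1 CPM in KO (SD, n = 6) and 24.4 ± 21.3 CPM in WT (SD, n = 4), with overlapping libraries (log2 fold change 1.31, SE 0.69, adjusted p = 0.337 by edgeR's quasi-likelihood test). Tnfrsf11a was at 2.56 ± 1.16 CPM in KO (SD, n = 6) and 2.16 ± 2.44 CPM in WT (SD, n = 4). Neither locus checks the labels, since the Cre was chosen to act in macrophage precursors. The paper describes the stem cells as remaining wild type, and deletion of Spi1 in the sorted cells was not measured here.

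Members differed widely in level over these libraries. On the TPM scale, which corrects for depth and transcript length, Mest was highest, with a mean of 1317 TPM over the 10 libraries. Cd81, a tetraspanin, followed at 733 TPM, then H19, the maternally expressed noncoding RNA of the Igf2 locus, at 669 TPM, Commd1, a regulator of copper and NF-kB, at 289 TPM, and Gnas, the stimulatory G protein subunit, at 244 TPM. Igf2, the fetal growth factor, had 157 TPM, Nap1l4, a histone chaperone, 146 TPM, Tssc4 64.9 TPM, Grb10, an adaptor that restrains insulin and IGF receptors, 62.3 TPM, and Meg3, the maternal noncoding RNA of the Dlk1-Dio3 cluster, 51.1 TPM. At the other end, Magel2 (0.0821 TPM), Zim1 (0.102 TPM) and Ascl2 (0.230 TPM) were barely detected. Kcnq1ot1 stood at only 0.942 TPM, since its counts are spread over a transcript of 84395 bases.

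**Figure D1:**
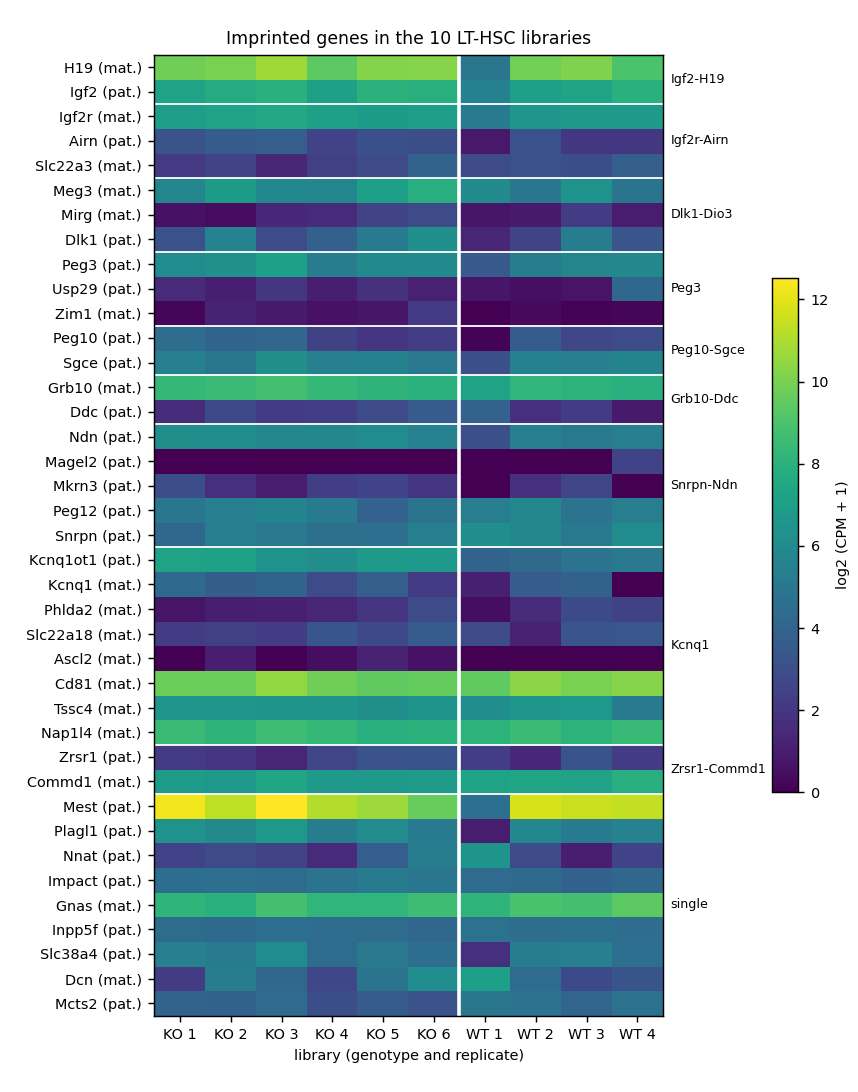
Level of 39 imprinted genes (rows, grouped by cluster, with mat. or pat. for the expressed copy) in 6 KO and 4 WT libraries (columns), as log2 (CPM + 1) in colour. Mest, H19, Cd81 and Gnas are the brightest rows, and WT replicate 1 is dark at Mest, H19, Peg10 and Plagl1.

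With p-values of edgeR's quasi-likelihood test adjusted over 16725 genes by the method of Benjamini and Hochberg, and a threshold of 0.1, 1 of the 39 members was higher in KO and 0 were lower. Over all genes tested, 1.32% were called higher and 2.67% lower, so the members' share of 2.56% higher rests on a single gene. DESeq2 with the study's fold-change threshold of 0.1 called 2 members higher and 0 lower, and DESeq2 without it called 3 and 3. Of all 16725 genes, the same fits called 585 higher and 551 lower, and 998 higher and 1145 lower. Before adjustment, 7 members (17.9%) were higher with p below 0.05 and 5 (12.8%) lower, where 8.6% and 10.2% of all genes were. All 6 KO libraries lay above all 4 WT libraries for 4 members (10.3%) and below them for 0, against 2.88% and 3.48% of all genes. That count is on the CPM scale. On the TPM scale Kcnq1ot1, Igf2r and Impact separated as well, Ndn overlapped (lowest KO library 11.08 TPM, highest WT library 11.18 TPM), and Meg3 separated (at least 39.45 TPM in KO and at most 36.46 TPM in WT). The shares of all genes above hold for CPM, and none is given here for TPM, so separation on TPM has no such background. The median log2 fold change of the members was 0.38, beside 0.06 over all genes, and it was 0.30 beside 0.08 without WT replicate 1. It was 0.21 for the 17 maternally and 0.41 for the 22 paternally expressed members, and 0.30 and 0.34 without WT replicate 1. Members of both kinds thus had positive and negative values, with 9 of 17 and 15 of 22 above 0.

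**Figure D2:**
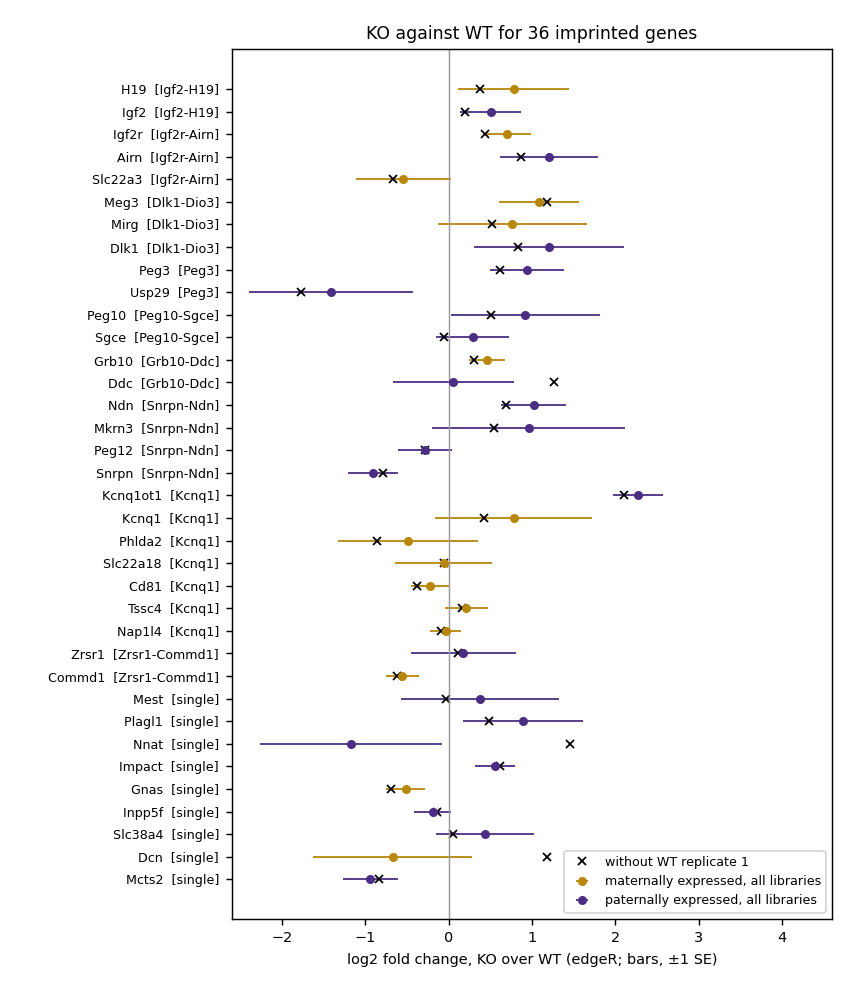
Log2 fold change of KO over WT from edgeR for 36 imprinted genes, with bars of 1 SE, coloured by the expressed copy, and crosses for the fit without WT replicate 1. Zim1, Magel2 and Ascl2 are left out, being at most 3 counts per library in 1 genotype. Kcnq1ot1 stands farthest to the right at 2.27. The crosses of Nnat and Dcn, and by a small margin those of Sgce and Mest, lie on the other side of 0 from their points.

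In the Kcnq1 cluster of 8 members, Kcnq1ot1 was the member called. The gene is annotated as a single exon on the minus strand of chr7:143203458-143296549 (GRCm38, Gencode vM21), wholly inside the span of Kcnq1, a potassium channel gene on the plus strand. Its level was 153.7, 145.1, 86.4, 70.6, 105.5 and 102.3 CPM in KO replicates 1 to 6 and 14.9, 19.3, 26.0 and 31.6 CPM in WT replicates 1 to 4. Every KO library was above the highest WT library, and each value rests on at least 197 counts. The log2 fold change was 2.27 (SE 0.30, adjusted p = 0.0743). Leaving out each library in turn gave log2 fold changes of 2.11 to 2.46 and adjusted p of 0.0335 to 0.177, below 0.1 in 5 of 10 such fits. The call was lost without KO replicate 1, 2, 5 or 6 or WT replicate 1 (adjusted p = 0.128 without the last). It was called by DESeq2 with the fold-change threshold (adjusted p = 4.15e-09). With the log2 level of Xist as a covariate the log2 fold change was 2.31 and the adjusted p 0.251.

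Transcript length moved with this difference. Genes with longer transcripts had higher fold changes, with medians of -0.25 and 0.33 on the log2 scale in the shortest and longest of 5 groups of equal size and a Spearman rho of 0.222 across 15993 genes, which are not independent replicates. A loess offset for length lowered the value of Kcnq1ot1 to 0.46 (adjusted p = 0.370). Kcnq1ot1 was the only 1 of these 15993 genes with a known length that was over 20000 bases, so no other gene of like length informs that offset. It was itself part of the loess fit, and how far the offset at its length followed its own values was not tested. The drop to 0.46 therefore cannot separate an effect of length from the gene's own difference. The same offset took Igf2r to 0.34 (adjusted p = 0.547), Ndn to 0.65 (adjusted p = 0.348), Igf2 to 0.26 and Grb10 to 0.24, from the values given with these genes. A gene's length was taken as the unweighted mean over its annotated transcripts, 3311.7 bases for Igf2r and 2018.4 bases for Grb10. Igf2r was read mainly from a transcript of 8887 bases, and Grb10 from transcripts of 4755 and 5061 bases. For these genes the offset thus did not follow the length of the RNA measured. With lengths capped at 10000 bases, an alternative chosen after seeing the data, the log2 fold change of Kcnq1ot1 was 1.46 and the adjusted p 0.0842. SmartSeq2 reads carry no strand, and Kcnq1ot1 shares 121 exonic bases with Kcnq1, so unspliced Kcnq1 RNA cannot be told apart from it by these counts. Transcripts annotated as retained introns held 4.42% to 5.42% of counts in KO and 3.49% to 5.24% in WT. Their part in the difference was not tested.

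The neighbours that Kcnq1ot1 is known to silence gave no call. Kcnq1 was at 11.4 ± 5.51 CPM in KO (SD, n = 6) and 6.61 ± 7.09 CPM in WT (SD, n = 4). Phlda2, a restrainer of placental growth, was at 2.29 ± 2.25 CPM in KO and 3.21 ± 2.55 CPM in WT, and Slc22a18, a transporter gene, at 6.29 ± 3.22 and 6.57 ± 3.78 CPM. Cdkn1c, the cyclin-dependent kinase inhibitor of the same cluster, ranged from 29.2 to 64.9 CPM in KO and from 8.87 to 79.3 CPM in WT. For Cd81 the log2 fold change was -0.22 (SE 0.23, adjusted p = 0.643 by edgeR), for Tssc4 0.21 (SE 0.26, adjusted p = 0.713) and for Nap1l4 -0.03 (SE 0.19, adjusted p = 0.947). Ascl2, a placental transcription factor gene, had 0 counts in every WT library and 0, 7, 0, 8, 43 and 8 counts in KO replicates 1 to 6. With WT set to 3 counts per library its mean was at least 1.95-fold higher in KO, and 1.40-fold without KO replicate 5. Its unadjusted p was 0.0177 and its adjusted p 0.173 in edgeR's test.

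**Figure D3:**
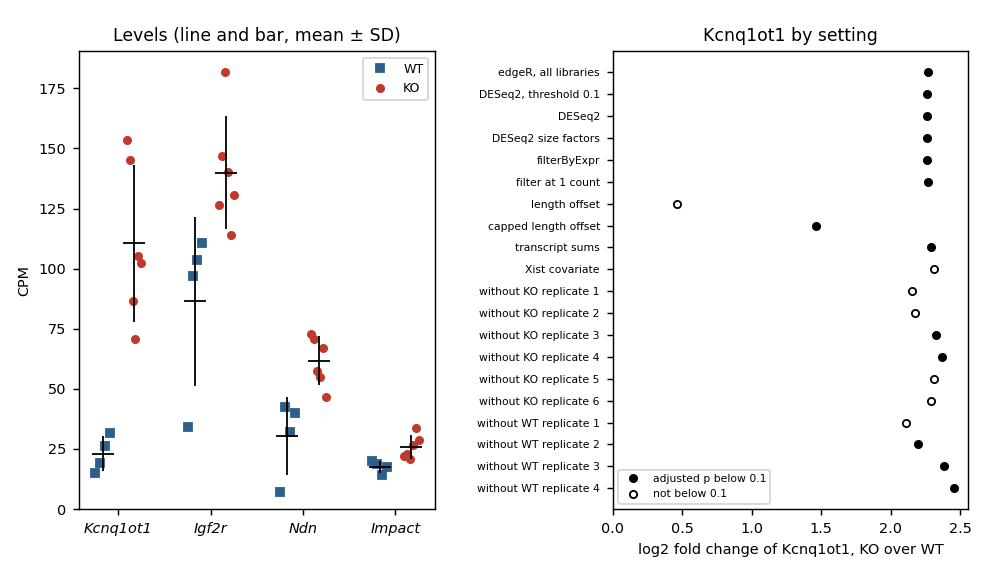
Left, CPM of Kcnq1ot1, Igf2r, Ndn and Impact in 4 WT (squares) and 6 KO libraries (circles), with the mean and SD. Right, the log2 fold change of Kcnq1ot1 under each alternative, filled where the adjusted p was below 0.1. The genotypes do not overlap for any of the 4 genes, and the length offset gives the lowest value at 0.46.

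The growth factor Igf2, its decoy receptor Igf2r and their noncoding neighbours were next. Igf2r, the maternally expressed receptor that takes up IGF2 for degradation (chr17:12682406-12769664), was at 126.6, 146.8, 181.6, 140.1, 113.8 and 130.8 CPM in KO replicates 1 to 6. In WT replicates 1 to 4 it was at 34.3, 96.98, 103.5 and 110.5 CPM, so all KO libraries were above all WT libraries and WT replicate 1 was far below the rest. The log2 fold change was 0.70 (SE 0.29, unadjusted p = 0.0315, adjusted p = 0.215), and 0.43 (SE 0.18, adjusted p = 0.284) without WT replicate 1. Airn, the paternal antisense RNA that silences Igf2r, had 8.66 ± 3.08 CPM in KO (SD, n = 6) and 3.74 ± 3.02 CPM in WT (SD, n = 4). It shares no exonic base with Igf2r, but their spans overlap on opposite strands. As the reads carry no strand, unspliced Igf2r RNA cannot be told apart from Airn by these counts. Slc22a3, an organic cation transporter gene of the cluster, had 5.85 ± 4.73 and 8.54 ± 3.06 CPM.

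H19 (chr7:142575529-142578143) was between 667 and 1696 CPM in KO, with a median of 1097 CPM. WT replicates 2, 3 and 4 had 944.6, 1115.5 and 510.4 CPM, and WT replicate 1 had 29.7 CPM. The log2 fold change of H19 was 0.78 (SE 0.67, adjusted p = 0.575 by edgeR), and 0.38 (SE 0.30) without WT replicate 1. Igf2 (chr7:142650766-142666816) was between 139 and 265 CPM in KO, and at 44.9, 135.2, 157.4 and 250.5 CPM in WT replicates 1 to 4. Its log2 fold change was 0.50 (SE 0.37, adjusted p = 0.498), and 0.20 (SE 0.26) without WT replicate 1. Igf2 shares 62.8% of its exonic bases with Gm49394 on the same strand, so its counts may be split. For Grb10, which acts below the same receptors, the log2 fold change was 0.46 (SE 0.22, adjusted p = 0.277), and 0.30 (SE 0.20) without WT replicate 1. Ddc, its paternally expressed neighbour in the heart, had 5.46 ± 3.19 CPM in KO (SD, n = 6) and 5.22 ± 6.04 CPM in WT (SD, n = 4). WT replicate 1 had 14.1 CPM of Ddc and the other WT libraries a mean of 2.255 CPM, and the log2 fold change of 0.06 (SE 0.73) was 1.26 (SE 0.69, adjusted p = 0.392 by edgeR) without it.

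Of 17 other IGF pathway genes, 0 passed the adjusted threshold in edgeR. With an unadjusted p of less than 0.05, 4 (23.5%) were higher and 0 lower, where 8.6% and 10.2% of all genes were. Their median log2 fold change was 0.26, and 0.62 without WT replicate 1. DESeq2 with the fold-change threshold called 0 higher and 0 lower. Igf2bp2, which codes for an mRNA-binding protein of Igf2, was at 45.1 to 79.2 CPM in KO and 6.75 to 40.3 CPM in WT, and its genotypes did not overlap. It is named for that separation, after its values were seen.

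In the Dlk1-Dio3 cluster, all 3 members in the table had fold changes above 0 and none was called. Meg3 (chr12:109541001-109571726) was at 53.4, 113.6, 57.4, 52.3, 135.4 and 226.8 CPM in KO replicates 1 to 6 and at 60.1, 29.3, 83.5 and 27.6 CPM in WT replicates 1 to 4. The 3 highest libraries were KO replicates 6, 5 and 2, and the genotypes overlapped. Its log2 fold change was 1.08 (SE 0.48, unadjusted p = 0.0442, adjusted p = 0.250). Dlk1, a paternally expressed Notch-related ligand that also marks hepatoblasts, ranged from 6.34 to 73.5 CPM in KO and from 1.52 to 36.8 CPM in WT. Mirg, the host RNA of a microRNA cluster, had 2.57 ± 2.42 CPM in KO (SD, n = 6) and 1.51 ± 1.32 CPM in WT (SD, n = 4). Rian, the host of small nucleolar RNAs and microRNAs, was read from the transcript tables. On the TPM scale it was at 20.4 to 22.9 TPM in KO and at 3.50, 7.70, 11.9 and 9.20 TPM in WT replicates 1 to 4, without overlap (two-sided exact permutation test over 210 splits, p = 0.00952). Any value with fully separated genotypes gets this p in that test. As estimated counts scaled to library size the genotypes overlapped, at 12.98 to 29.2 in KO and 6.91 to 23.6 in WT. In counts summed from the transcript tables, with length offsets, its log2 fold change was 0.92 (SE 0.40) and its adjusted p 0.247 by edgeR.

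The Snrpn-Ndn cluster, all of it paternally expressed, had fold changes on both sides of 0. Ndn, which codes for necdin, a growth-restraining protein of the MAGE family (chr7:62346569-62350262), was at 72.8, 70.7, 57.4, 54.9, 67.1 and 46.8 CPM in KO replicates 1 to 6. WT replicates 1 to 4 had 7.20, 42.3, 32.2 and 39.9 CPM, below every KO library. The log2 fold change of Ndn was 1.02 (SE 0.39, unadjusted p = 0.0211, adjusted p = 0.187), and 0.69 (SE 0.21, adjusted p = 0.181) without WT replicate 1. Snrpn, a splicing factor gene (chr7:59982495-60140219), was at 29.8 ± 10.1 CPM in KO (SD, n = 6) and 55.6 ± 17.1 CPM in WT (SD, n = 4), with WT replicate 3 inside the KO range. Its log2 fold change was -0.90 (SE 0.30, unadjusted p = 0.00990, adjusted p = 0.138), and it shares 27.3% of its exonic bases with Gm38393 on the same strand. Magel2, a ubiquitin ligase regulator, had 33 counts in WT replicate 4 and 0 in each of the other 9 libraries. Its unadjusted p was 0.0190 and its adjusted p 0.177 in edgeR's test, both resting on that library. Mkrn3, a zinc finger gene tied to puberty timing, had 3.59 ± 2.06 CPM in KO and 1.83 ± 2.42 CPM in WT, and Peg12 had 32.9 ± 12.4 and 40.02 ± 11.5 CPM.

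In the Peg3 cluster, Peg3, a zinc finger gene, had 73.8 ± 33.9 CPM in KO (SD, n = 6) and 38.6 ± 20.6 CPM in WT (SD, n = 4), a log2 fold change of 0.94 (SE 0.44), and 0.62 (SE 0.35) without WT replicate 1. Usp29, a ubiquitin protease gene read from the same control region, had at most 2.92 CPM in the libraries other than WT replicate 4, which had 17.7 CPM. Zim1 had 2, 8, 16, 12, 23 and 51 counts in KO replicates 1 to 6 and 0, 3, 1 and 1 in WT replicates 1 to 4. With WT set to 3 counts per library its mean was at least 4.01-fold higher in KO, and at least 2.46-fold without KO replicate 6. Its unadjusted p was 0.0190 and its adjusted p 0.177 in edgeR's test, and DESeq2 with the fold-change threshold gave 0.0863. Peg10 and Sgce, neighbours that share a control region, had log2 fold changes of 0.92 (SE 0.89) and 0.29 (SE 0.44). Without WT replicate 1 these were 0.51 (SE 0.67) for Peg10 and -0.05 (SE 0.28) for Sgce.

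Among the members outside these clusters, Impact, which restrains the GCN2 stress kinase (chr18:12955852-12992950), was at 20.6 to 33.6 CPM in KO and 14.05 to 19.95 CPM in WT. The lowest KO and the highest WT library were 20.63 and 19.95 CPM, so the separation was narrow. Its log2 fold change was 0.55 (SE 0.24, unadjusted p = 0.0396, adjusted p = 0.237), and it was 0.12 with the length offset. Commd1 had 119 ± 24.6 CPM in KO (SD, n = 6) and 175 ± 40.7 CPM in WT (SD, n = 4), with KO replicate 3 within the WT range. The log2 fold change of Commd1 was -0.56 (SE 0.20, unadjusted p = 0.0155, adjusted p = 0.165 by edgeR). Leaving out each library in turn gave adjusted p of 0.0756 to 0.302, below 0.1 only without KO replicate 3. That fit called 405 genes higher and 598 lower over the whole table. Zrsr1, a splicing factor gene that shares 412 exonic bases with Commd1 on the opposite strand, had 4.94 ± 2.93 and 4.38 ± 2.97 CPM. Gnas had 333 ± 76.9 CPM in KO and 476 ± 150 CPM in WT, a log2 fold change of -0.52 (SE 0.23, unadjusted p = 0.0463, adjusted p = 0.256). Mcts2, a retrogene inside an intron of H13, had 12.5 ± 4.71 and 24.0 ± 5.45 CPM, a log2 fold change of -0.94 (SE 0.33, unadjusted p = 0.0143, adjusted p = 0.159 by edgeR). With each library left out, the adjusted p of Mcts2 was 0.0911 to 0.294, below 0.1 only in the same fit without KO replicate 3. Inpp5f, an inositol phosphatase gene, had 20.0 ± 2.37 and 22.9 ± 1.72 CPM, with every library between 16.4 and 25.1 CPM.

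WT replicate 1 was the lowest of the 10 libraries for 16 of 39 members, against 18.3% of all genes. For 11 members (28.2%) every other library was at least 3-fold above it, against 3.66% of all genes, where only genes at 1 CPM or more in each other library were counted, a rule chosen after seeing the data. Of these 11, 10 were paternally expressed and 1, H19, was maternally expressed. Mest was at 23.1 CPM there and at 775 to 5914 CPM elsewhere, and its log2 fold change was 0.38 (SE 0.94, adjusted p = 0.870 by edgeR), and -0.034 (SE 0.50) without that library. Plagl1, a zinc finger growth regulator, was at 0.910 CPM there and at 35.0 to 100.5 CPM elsewhere, and Peg10, a retrotransposon-derived gene, at 0.0758 CPM there and 2.81 to 21.3 CPM elsewhere. Slc38a4, an amino acid transporter gene, was at 2.35 CPM there and 20.9 to 64.7 CPM elsewhere. Nnat, which codes for neuronatin, and Dcn, the proteoglycan decorin, went the other way, at 89.7 and 132.1 CPM there and at most 38.4 and 67.1 CPM elsewhere. The signs of the log2 fold changes of Nnat and Dcn turned without it, from -1.17 to 1.45 and from -0.67 to 1.18, and neither passed the test in either fit.

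The endothelial markers were low in the same library. All 10 endothelial markers were lowest in WT replicate 1, among them Stab2 at 6.07 CPM and Lyve1 at 10.2 CPM, where the other libraries had at least 271 and 169 CPM. Zfp57, which protects imprints, was at 0.379 CPM there and at 12.4 to 69.0 CPM elsewhere. Over the 10 libraries, log2 (CPM + 1) of 36 members with a mean of at least 1 CPM was correlated with the summed endothelial, hepatoblast and stromal markers, 108 relations chosen after seeing the data. Mest followed the endothelial sum with a Pearson r of 0.976 (permutation p = 1e-05, the smallest the 100000 resamples can give, adjusted p = 0.00108) and a Spearman rho of 0.952 (permutation p = 0.00012, adjusted p = 0.0130). Without WT replicate 1 and KO replicate 6, the libraries farthest from the median, r was 0.907, and within the 6 KO libraries it was 0.972.

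Of the 108 relations 9 had an adjusted p for r under 0.05, 7 of them with the endothelial sum. Sgce and Plagl1 also followed the endothelial sum, with r of 0.945 (permutation p = 0.00052, adjusted p = 0.0187) and 0.921 (permutation p = 0.00124, adjusted p = 0.0318). Their rho of 0.782 and 0.697 had permutation p of 0.0106 and 0.0309 and adjusted p of 0.114 and 0.209, and r without the 2 farthest libraries was 0.784 and 0.634. For Slc38a4 and Peg10 r with that sum was 0.921 (permutation p = 0.00178, adjusted p = 0.0320) and 0.852 (permutation p = 0.00244, adjusted p = 0.0376), and without the same 2 libraries 0.622 and 0.629. Ddc and Dcn ran against it, with r of -0.816 (permutation p = 0.00147, adjusted p = 0.0318) and -0.780 (permutation p = 0.00391, adjusted p = 0.0469), and -0.525 and -0.234 without the 2 libraries. The rho of Slc38a4, Peg10, Ddc and Dcn was 0.758, 0.782, -0.879 and -0.721, with permutation p of 0.0148, 0.0101, 0.00174 and 0.0228 and adjusted p of 0.146, 0.114, 0.0548 and 0.189. Dlk1 followed the hepatoblast sum with r = 0.833 (permutation p = 0.00307, adjusted p = 0.0414) and 0.729 without KO replicates 5 and 6, and Dcn followed the stromal sum with r = 0.901 (permutation p = 0.00045, adjusted p = 0.0187) and 0.873 without WT replicate 1 and KO replicate 2. For Meg3 and the hepatoblast sum r was 0.724 (permutation p = 0.0174, adjusted p = 0.114). In these bulk libraries, fewer cells of a type and less RNA per cell cannot be told apart, and the part of other cell types in the members' values was not tested.

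**Figure D4:**
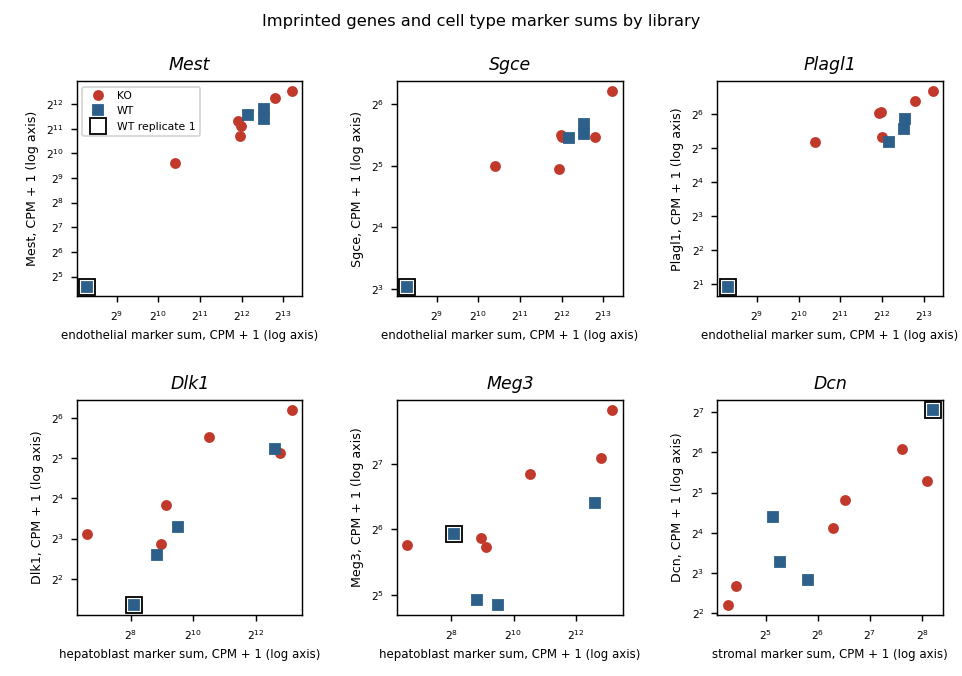
Level of 6 imprinted genes (CPM + 1, log axis) against the summed level of a cell type's markers (CPM + 1, log axis), with 1 point per library. WT replicate 1, boxed, is at the low end of the endothelial panels and the high end of the stromal panel. Mest rises with the endothelial sum across the remaining 9 libraries as well (r = 0.960).

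Neighbouring members were also compared over the 10 libraries, in 5 pairs with both genes at a mean of 1 CPM or more. Igf2r with Airn had r = 0.842 (permutation p = 0.00346, adjusted p = 0.0173) and rho = 0.685 (permutation p = 0.0346, adjusted p = 0.168). The spans of these genes overlap, and the part of unspliced RNA in that relation was not tested. H19 with Igf2 had r = 0.869 (permutation p = 0.0252, adjusted p = 0.0462) and rho = 0.552 (permutation p = 0.105, adjusted p = 0.168), and Peg10 with Sgce had r = 0.740 (permutation p = 0.0277, adjusted p = 0.0462) and rho = 0.382 (permutation p = 0.279, adjusted p = 0.279). Without WT replicate 1, r fell to 0.256 for H19 with Igf2, 0.223 for Peg10 with Sgce and 0.617 for Igf2r with Airn. Within the 6 KO libraries H19 with Igf2 had r = 0.845. Without the 2 libraries farthest from the median of the first gene, r was 0.750, 0.268 and 0.419 in the same order. On log2 TPM, Peg10 with Sgce had r = 0.696, 0.595 without WT replicate 1 and 0.842 without its 2 farthest libraries. Peg3 with Usp29 (r = 0.343, permutation p = 0.243, rho = 0.612) and Kcnq1ot1 with Kcnq1 (r = 0.474, permutation p = 0.169, rho = 0.515) did not pass. With values centred within genotype, r for Kcnq1ot1 with Kcnq1 was 0.0849. On log2 TPM this pair did pass, with r = 0.659 (permutation p = 0.0398, adjusted p = 0.0498) and rho = 0.758 (permutation p = 0.0152, adjusted p = 0.0215). Centred within genotype, its r on log2 TPM was 0.409.

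Many imprinted genes use alternative starts, so the share of a gene's TPM on its leading transcript was compared for 20 listed genes with at least 2 transcripts of 1 TPM or more, Rian included. No share passed an adjusted p below 0.05 in two-sided exact permutation tests over 210 splits, and 4 genes were below 0.05 unadjusted (Inpp5f, Commd1, Rian and Grb10). For Inpp5f the retained-intron transcript Inpp5f-205 held 33.7% to 55.1% of TPM in KO and 62.0% to 73.4% in WT, with means of 45.5% ± 8.25 (SD, n = 6) and 68.0% ± 5.36 (SD, n = 4; exact permutation p = 0.00952, adjusted p = 0.190). The genotypes did not overlap for it, and its adjusted p was still 0.190. A single fully separated gene could thus not pass 0.05 among these 20 genes, so the lack of a call decides little. Grb10-203 held 60.1% ± 9.44 in KO (SD, n = 6) and 77.1% ± 10.6 in WT (SD, n = 4; exact permutation p = 0.0476, adjusted p = 0.238). The transcript of Mest with the highest mean was Mest-211, at 24.9% to 65.2% of its TPM in KO and 19.1% to 47.6% in WT, and Mest-210 was the higher of the pair in 4 of the 10 libraries. Igf2 was read mainly from Igf2-208, a transcript annotated as processed, at 72.7% to 83.9% and 75.04% to 89.2%.

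**Figure D5:**
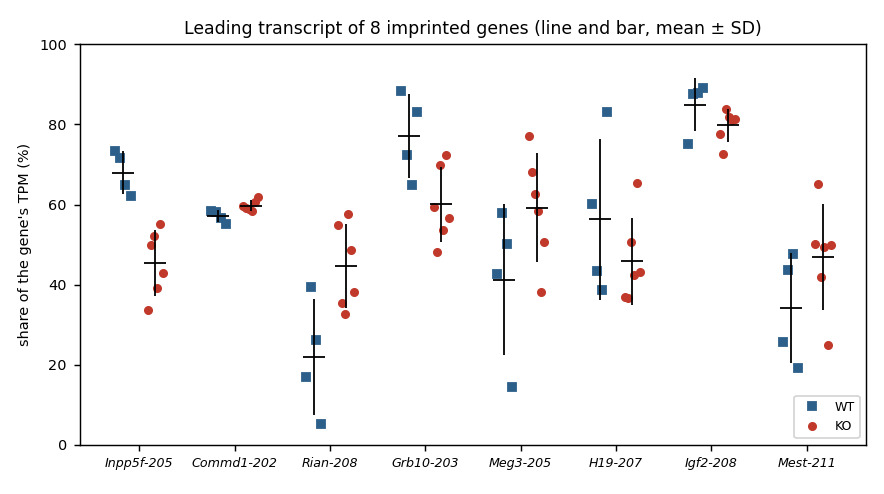
Share of a gene's TPM on its leading transcript (percent) in 4 WT (squares) and 6 KO libraries (circles), with the mean and SD, for 8 imprinted genes. Inpp5f-205 is the transcript with a gap between the genotypes, from 55.1% in KO to 62.0% in WT, and the others overlap.

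The other imprinted genes and the proteins that keep imprints were taken from lists. Of 35 further imprinted genes tested, 0 were called in edgeR, and DESeq2 with the fold-change threshold called 1 higher and 0 lower. Before adjustment 1 of them (2.86%) was higher and 1 (2.86%) lower with p below 0.05, where 8.6% and 10.2% of all genes were. The genotypes separated in CPM for 0 of them, and the median log2 fold change was 0.31. Of 20 imprint maintenance genes tested, Dnmt3b, a de novo DNA methyltransferase, was the 1 called, higher in KO at 60.0 to 214 CPM against 58.9 to 84.0 CPM in WT (log2 fold change 1.16, SE 0.31, adjusted p = 0.0910), and 0 were called lower. Before adjustment, 6 of these 20 (30.0%) were higher and 2 (10%) lower with p below 0.05, where 8.6% and 10.2% of all genes were. DESeq2 with the fold-change threshold called 3 of them higher and 1 lower, beside 585 and 551 of all 16725 genes. Dnmt3a, a relative of Dnmt3b, had a log2 fold change of 1.12 (SE 0.32, adjusted p = 0.105 by edgeR), and Zfp57 0.35 (SE 0.79, adjusted p = 0.856). Beside these values, 4 of 12 LT-HSC markers were called higher in KO (Cd34, Hoxa9, Mecom and Hlf, log2 fold changes 0.93 to 2.09), 1 of 11 macrophage markers lower (Marco, at 0 CPM in all 6 KO libraries and 3.41 to 14.3 CPM in WT) and 1 of 8 erythroblast markers lower (Epor, log2 fold change -0.999). Over all genes tested, edgeR called 1.32% higher and 2.67% lower. Of the hepatoblast, stromal and endothelial markers 0 were called, and 0 had an unadjusted p below 0.05. Fits without KO replicate 1, 2, 5 or 6 or WT replicate 1 called 0 genes of the whole table, as did the fit with Xist as a covariate, and the fit without KO replicate 4 called Kcnq1ot1 alone, so the calls of these lists were lost in each of them.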

How the data were processed

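RNA of sorted E14.5 LT-HSCs was measured in 6 KO and 4 WT libraries by SmartSeq2, sequenced as single-end reads (bcl2fastq 2.20) and quantified with kallisto 0.44.0 on Gencode vM16 (GRCm38), per the labels and the methods. The deposited transcript tables hold estimated counts, not normalized, and TPM, which the authors' tool scaled for length to a fixed total. The deposited gene table holds counts, apparently summed by the authors from transcript estimates and mostly cut to the whole part, since 97.5% of its values lie within 1 of such sums and, of 86 member values with a fraction of 0.5 or more, 74 held the whole part.

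Samples were grouped by their labels. Replicate numbers follow sample order and pair nothing. The study counts embryos at the same numbers as the libraries, but the labels tie no library to an embryo, so p-values measure the spread between libraries. No 2 libraries were identical.

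A total of at least 11 counts was required of a gene, and genes were tested with edgeR 4.0.16 (R 4.3.3) by glmQLFit (robust) and glmQLFTest after TMM. P-values were adjusted by Benjamini-Hochberg over all genes, with 0.1 as the limit, and the procedure was tested on simulated data. Standard errors were derived from the F statistic. Alternatives were DESeq2 1.42.0 with a threshold of 0.1 or none, its size factors, other filters, offsets for transcript length (loess span 0.3), Xist as covariate, an adjusted p below 0.05 and each library left out. Correlations and permutation tests (NumPy 2.4.6, SciPy 1.17.1) used 100000 resamples or all splits and a pseudocount of 1. Positions, lengths and overlaps came from Gencode vM21, which matched 99.7% of transcripts. A genotype with at most 3 counts in each library was set to 3 counts for a lower bound, which covers counting error only, as no molecular identifiers were used.

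The members and lists were chosen with earlier results of these data known. Fold changes are given for members past an adjusted p of 0.1 or an unadjusted p of 0.05 and for the 10 with the highest mean TPM. For other members values are given as levels, and a fold change is added, outside that rule, where leaving out WT replicate 1 turned its sign or where a neighbour is described.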

Additional observations from a re-analysis of the deposited data

Results flagged for a closer look

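Among the 78 sets of CPM values (39 members in 2 genotypes), 13 held a library whose gap to its nearest neighbour was over Dixon's critical value. That is 16.7%, beside a nominal 5% for independent sets of normally distributed values. These sets are CPM, several of them near 0, and come from the same libraries, so 5% is not the rate by chance here. WT replicate 1 was above the other WT libraries for Nnat (89.7 CPM, others 1.11 to 6.57) and Dcn (132.1 CPM, others 6.14 to 19.9). WT replicate 4 was above them for Usp29 (17.7 CPM, others 0.444 to 0.683), Magel2 (4.67 CPM, others 0) and Commd1 (235.8 CPM, others 149 to 163), and WT replicate 3 for Mirg (3.48 CPM, others 0.683 to 0.991). KO replicate 6 was above the other KO libraries for Slc22a3 (14.9 CPM, others 1.52 to 6.34), Zim1 (3.35 CPM, others 0.122 to 1.26), Phlda2 (6.64 CPM, others 0.609 to 2.75) and Nnat (38.4 CPM, others 1.82 to 12.2). KO replicate 3 was above them for Sgce (73.3 CPM, others 29.7 to 44.4), Cd81 (1436 CPM, others 709 to 909) and Commd1 (168 CPM, others 102 to 116). KO replicate 6 had the highest hepatoblast sum (9197 CPM) and KO replicate 3 the highest endothelial sum (9504 CPM), whose part in these values was not tested.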

How the results depend on the processing

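The number of members called higher, 1 as reported, was 2 under DESeq2 with the fold-change threshold, 3 under DESeq2 without it, 0 with the length offset, 0 with Xist as a covariate, 0 at an adjusted p below 0.05 and 0 to 1 when a library was left out. The number called lower, 0 as reported, was 3 under DESeq2 without the threshold and 0 to 2 when a library was left out. Over all genes, 221 higher and 446 lower became 585 higher under DESeq2 with the threshold, 998 and 1145 without it, 38 higher with the length offset (39 with capped lengths), 0 and 0 with the Xist covariate or at an adjusted p below 0.05, and 0 to 405 higher and 0 to 598 lower when a library was left out. The length offset moved the median log2 fold change of all genes from 0.06 to -0.12. Fits without KO replicates 1, 2, 5 or 6 or WT replicate 1 called 0 genes. Small values that turned sign included that of Nap1l4 (0.046 from transcript sums, 0.047 with the Xist covariate, -0.10 to 0.067 when a library was left out). Others were those of Tssc4 (-0.022 to 0.42 when a library was left out, negative without WT replicate 4) and Mest (-0.034 to 0.66, negative without WT replicate 1). Sgce was also negative without WT replicate 1 (-0.051). The cause was not tested. Isoform shares past 0.05 stayed at 0 in every alternative run, where a single fully separated gene could not pass. Neighbour pairs past 0.05 by r were 3, or 4 on log2 TPM, where Kcnq1ot1 with Kcnq1 was added. No paired analysis was possible because the replicate numbers follow sample order and the labels pair no libraries. Depth limits the members near 0 counts (Ascl2, Magel2 and Zim1).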
